A study of Homo sapiens with 48 samples.

Results

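RNAseq values of 10 genes of the FAT-Hippo pathway were examined in PSN1 cells, a human pancreatic cancer line. They were the 10 rows, of 20241 genes in the deposited table, whose symbols are FAT1, FAT2, FAT3, FAT4, DCHS1, YAP1, WWTR1, TEAD1, TEAD4 and AMOTL2. The set was chosen from measured values, because FAT4 was among the largest increases in cells of a resistant derivative after drug withdrawal. For that reason no p-value of the 10 genes is given in comparisons that involve those cells, and their values and counts there are descriptions that support nothing. Parental PSN1 cells were compared with TalaR-M cells, a resistant derivative kept in 50 nM Talazoparib (labelled 4 months), and with TalaR-DF cells, the same derivative moved to drug-free medium. All 3 groups were grown in RPMI1640 with serum. Talazoparib inhibits the DNA repair enzyme PARP1, and each group had 3 replicates. Both TalaR groups come from a single line that was selected with drug. Selection of cells and response of cells therefore cannot be told apart. The labels do not say that replicates came from separate cultures, so p-values measure only the spread between these samples.

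FAT4 and the other FAT proteins are giant cadherins of the cell surface, and DCHS1 is the cadherin to which FAT4 binds on the neighbouring cell. Both feed into planar cell polarity and the Hippo pathway, in which the kinases MST1/2 and LATS1/2 restrain YAP and TAZ, the coactivators encoded by YAP1 and WWTR1. When not restrained, YAP and TAZ enter the nucleus, bind TEAD transcription factors and turn on genes such as CCN1, CCN2, ANKRD1 and AMOTL2. The angiomotins, AMOTL2 among them, bind YAP and hold it at junctions, so AMOTL2 is both a target and an inhibitor. These steps act largely on protein localisation, which RNA levels do not measure.

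The TEAD binding sequence is CATTCC, which reads GGAATG on the other strand. It was searched for on both strands in RefSeq promoters of GRCh38.p14, each with 250 bases before and 50 after a start site. Of the 10 genes, FAT1, FAT2, YAP1, WWTR1 and AMOTL2 had an entry. FAT3, FAT4, DCHS1, TEAD1 and TEAD4 did not. Of 8 promoters of these 5 genes, 2 held the sequence, 1 each of YAP1 and AMOTL2. Among 21 YAP/TAZ target genes described further on, 15 had an entry, and 8 of their 16 promoters held it, against 14% of all 35116 promoters. The entries with a match are shown for both members and for CCN2 and ANKRD1, 2 target genes with several matches each, because the expression of these genes is followed in the next paragraphs. Only the 250 bases before the start are printed, with the matches in capitals, each on the strand of its gene. YAP1 (chr11:102110197-102110446, plus strand) has its match 162 bases upstream of the start. AMOTL2 (chr3:134374448-134374697, minus strand) has it 69 bases upstream. CCN2 (chr6:131951373-131951622, minus strand) has matches at 169, 104 and 95 bases, and ANKRD1 (chr10:90921088-90921337, minus strand) at 220 and 128 bases. A match is a description of the letters and not a bound site.
YAP1: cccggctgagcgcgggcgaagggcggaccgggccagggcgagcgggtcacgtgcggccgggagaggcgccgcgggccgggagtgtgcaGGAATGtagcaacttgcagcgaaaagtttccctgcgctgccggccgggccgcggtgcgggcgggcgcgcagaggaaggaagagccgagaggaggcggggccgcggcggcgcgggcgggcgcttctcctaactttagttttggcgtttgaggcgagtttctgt
AMOTL2: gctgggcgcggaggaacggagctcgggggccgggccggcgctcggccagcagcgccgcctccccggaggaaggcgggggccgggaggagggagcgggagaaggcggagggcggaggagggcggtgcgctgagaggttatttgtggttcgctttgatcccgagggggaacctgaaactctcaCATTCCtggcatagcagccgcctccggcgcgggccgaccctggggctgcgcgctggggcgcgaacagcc
CCN2: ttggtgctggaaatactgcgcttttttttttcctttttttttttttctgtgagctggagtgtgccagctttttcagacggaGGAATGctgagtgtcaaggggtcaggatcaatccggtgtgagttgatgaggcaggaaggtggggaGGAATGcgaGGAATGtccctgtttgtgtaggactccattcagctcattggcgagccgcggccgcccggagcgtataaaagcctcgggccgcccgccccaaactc
ANKRD1: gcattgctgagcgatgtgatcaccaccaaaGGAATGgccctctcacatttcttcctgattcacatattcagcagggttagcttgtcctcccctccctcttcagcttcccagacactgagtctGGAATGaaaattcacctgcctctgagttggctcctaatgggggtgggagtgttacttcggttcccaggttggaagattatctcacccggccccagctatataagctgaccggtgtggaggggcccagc

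The values are log2 CPM, read counts scaled to the size of each library, and the authors set every value under 0 to 0, so that 0 stands for at most 1 CPM. Recovered reads above that floor summed to between 12213605 and 14973847 in 8 libraries and to 8387755 in TalaR-M replicate 2. That library stood apart in another way. Its deviation from TalaR-M replicates 1 and 3 had a median of 1.37 log2 units among the 1183 genes with the shortest transcripts and -1.41 among the 1183 with the longest. Length and GC content together accounted for 45.4% of the variance of its deviations from the mean of all libraries, against 3.17% to 23.0% in the others. The TalaR-M differences are therefore given with and without TalaR-M replicate 2. The model shares 1 spread per gene over all groups, so that library also enters the errors of TalaR-DF against parental. There 844 genes were higher and 1471 lower at an adjusted p under 0.05 (limma), and 4101 and 3823 without TalaR-M replicate 2. Where TalaR-DF against parental is given only with all libraries, its errors and adjusted p-values carry that spread. The cause of its deviation was not tested. Of 6 epithelial tumor markers, KRT7, KRT8, KRT18, KRT19 and EPCAM were above the floor in all libraries and CDH1 was at 0. Their sum was 1078 to 1132 CPM in parental, 949 to 1085 in TalaR-DF, 1847 and 1701 in TalaR-M replicates 1 and 3, and 5773 in TalaR-M replicate 2. The 4 erythroid markers were at 0 in all libraries, as were CD3E and CD68 of the leukocyte markers. CD14 was at 3.82, 3.48 and 3.88 log2 CPM in parental, 1.24, 2.83 and 1.23 in TalaR-M and 0.60, 0.61 and 0.24 in TalaR-DF cells. PTPRC was at 0 in the parental libraries and in TalaR-M replicate 2, and at 1.79 and 0.83 in TalaR-M replicates 1 and 3. The 4 endothelial markers summed to 28.8 to 30.9 CPM in parental, 5.91 to 9.06 in TalaR-M and 2.92 to 3.24 in TalaR-DF cells. Mesenchymal tumor cells can also express fibroblast markers. The 6 fibroblast markers summed to 408 to 417 CPM in parental, 23.8 to 50.8 in TalaR-M and 87.2 to 94.5 in TalaR-DF cells. They did not move together. COL1A2 had a mean of 233 CPM in parental cells and was at 0 in TalaR-M, and LUM, PDGFRA and PDGFRB were also lower there. DCN was at 0 in parental and TalaR-DF cells and at 1.45 to 1.73 log2 CPM in TalaR-M. FAP was at 0 in all libraries. The part of these markers in the results was not tested.

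FAT4 was nearly silent in parental cells and present in both TalaR groups. FAT4 (ENSG00000196159) lies on the plus strand at chr4:125314918-125492932 of hg38. It was at 0, 0 and 0.36 log2 CPM in the parental replicates, at 4.57, 1.22 and 4.81 in TalaR-M, and at 3.85, 4.62 and 4.11 in TalaR-DF. Neither TalaR group overlapped the parental group. The lowest TalaR library was TalaR-M replicate 2, with 17 reads against 372 and 394 in its 2 companions. The parental value above the floor came from 16 reads. The mean log2 difference was 3.41 ± 0.84 (SE) between TalaR-M and parental cells, with an adjusted p of 0.0208 (limma), and 4.57 ± 0.20 without TalaR-M replicate 2 (adjusted p = 1.69e-10). Over all settings tried, the adjusted p ran from 1.69e-10 to 0.0768. In particular it was between 0.0540 and 0.0759 when any parental library, or TalaR-M replicate 1 or 3, was left out, so the call made with all 9 libraries was lost in each of these 5 fits. It was also lost with no filter on low genes (0.0582) and with only the 2 groups fitted (0.0768). TalaR-DF exceeded parental by 4.07 ± 0.84, the 5th largest of 12471 differences from the top, which is the property that chose it. Since 2 parental libraries lie at the floor, these differences understate the change. With a pseudocount of 8 CPM the difference between TalaR-DF and parental cells was 1.65. TalaR-DF and TalaR-M differed by 0.66 ± 0.84 with all libraries and by -0.50 ± 0.20 without TalaR-M replicate 2, and the libraries of the 2 groups overlapped in both cases.

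FAT1, the most abundant FAT cadherin in these cells, showed how much 1 library matters. FAT1 (ENSG00000083857, chr4:186587794-186726722, minus strand) was at 7.67, 7.66 and 7.55 log2 CPM in parental, 8.32, 4.78 and 8.56 in TalaR-M, and 7.68, 8.31 and 7.97 in TalaR-DF cells. TalaR-M replicates 1 and 3 were above every parental library, and replicate 2 was far below. The TalaR-M difference from parental was accordingly -0.41 ± 0.87 (adjusted p = 0.746, limma) with all libraries and 0.82 ± 0.13 (adjusted p = 1.04e-04) without replicate 2, which turned its direction. It stayed under the minimum change of 1. TalaR-DF cells lay 0.36 ± 0.87 above parental, and all 3 of their libraries exceeded the parental ones, by a small margin for replicate 1. Per kilobase of transcript, FAT1 stood at 13.4, 16.4 and 17.5 CPM in parental, TalaR-M and TalaR-DF cells, against 0.025, 1.05 and 1.09 for FAT4. FAT4 thus remained far below FAT1 in every group. FAT2 and FAT3 were at 0 in all 9 libraries and were not tested, so that 8 of the 10 genes passed the filter.

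DCHS1, the FAT4 ligand, was lowest in TalaR-DF cells. DCHS1 (ENSG00000166341, chr11:6621330-6655809, minus strand) was at 2.43, 2.22 and 2.23 log2 CPM in parental, 1.91, 0 and 2.65 in TalaR-M, and 0.14, 0.97 and 0.66 in TalaR-DF cells. All TalaR-DF libraries were below all parental ones, by 1.70 ± 0.59 on average, with 15 to 26 reads against 61 to 78. TalaR-M replicates 1 and 3 spanned the parental level, and TalaR-M replicate 2 was at the floor. The TalaR-M difference from parental was -0.77 ± 0.59 (adjusted p = 0.355, limma) with all libraries and -0.01 ± 0.24 (adjusted p = 0.966) without that library. Without it TalaR-DF lay 1.69 ± 0.24 below TalaR-M, and the groups no longer overlapped. In TalaR-DF cells FAT4 was therefore high where DCHS1 was low, while TalaR-M replicates 1 and 3 had both.

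**Figure D1:**
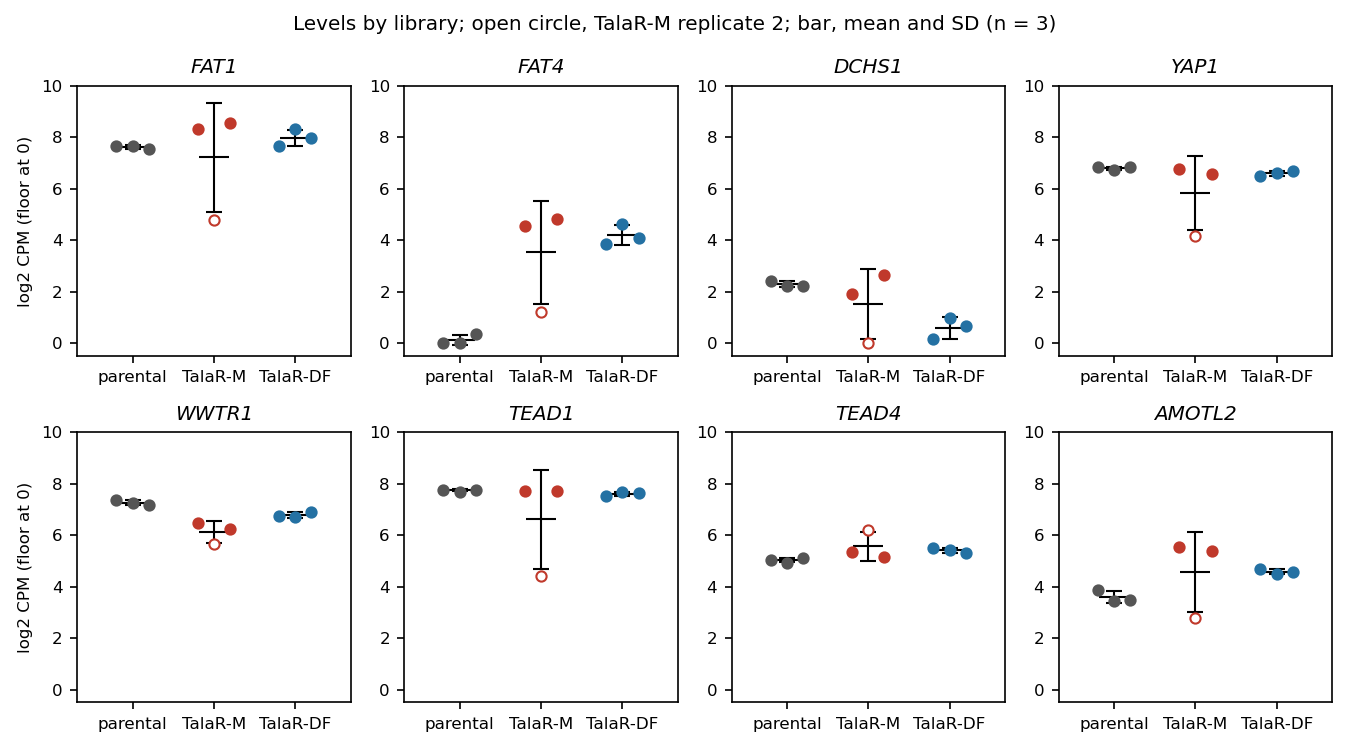
Log2 CPM of the 8 genes above the floor, 1 panel a gene, with 3 libraries in each of the parental, TalaR-M and TalaR-DF groups; bars give the mean and SD, and open circles mark TalaR-M replicate 2. FAT4 is near 0 in parental libraries and at 3.85 or more in all TalaR libraries but that one. YAP1 lies between 6.49 and 6.83 and TEAD1 between 7.52 and 7.78 in all libraries but that one. For both genes the TalaR-DF libraries are slightly below the parental ones.

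Of the coactivators, YAP1 RNA showed no called change and WWTR1 RNA, which encodes TAZ, was lower in both TalaR groups. YAP1 (ENSG00000137693, chr11:102110447-102233424, plus strand) was at 6.83, 6.72 and 6.83 log2 CPM in parental, 6.78, 4.17 and 6.58 in TalaR-M, and 6.49, 6.62 and 6.70 in TalaR-DF cells. TalaR-M replicate 2 alone stood far below the other libraries. The TalaR-M difference was -0.95 ± 0.60 (adjusted p = 0.272, limma), or -0.11 ± 0.08 (adjusted p = 0.235) without that library. WWTR1 (ENSG00000018408, chr3:149517235-149736714, minus strand) was at 7.36, 7.27 and 7.19 in parental, 6.49, 5.67 and 6.25 in TalaR-M, and 6.74, 6.71 and 6.92 in TalaR-DF cells. The 3 groups did not overlap, with TalaR-M lowest and TalaR-DF between. WWTR1 fell by 1.14 ± 0.21 in TalaR-M against parental (adjusted p = 0.00515, limma). Without replicate 2 it fell by 0.90 ± 0.09 (adjusted p = 6.61e-07), just under the minimum change, so that its direction held and its call did not. TalaR-DF cells were 0.49 ± 0.21 below parental. Per kilobase, WWTR1 stood at 30.8 CPM and YAP1 at 20.5 in parental cells, at 14.4 and 13.8 in TalaR-M, or 16.5 and 19.0 without replicate 2, and at 22.0 and 18.0 in TalaR-DF cells. The order of the 2 coactivator RNAs was not tested.

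Neither TEAD1 nor TEAD4, DNA-binding partners of YAP and TAZ, was called in TalaR-M cells. TEAD1 (ENSG00000187079, chr11:12674421-12944737, plus strand) was at 7.70 to 7.78 log2 CPM in parental cells, 7.73, 4.41 and 7.73 in TalaR-M, and 7.52 to 7.68 in TalaR-DF. Its TalaR-M difference was -1.12 ± 0.78 (adjusted p = 0.318, limma), and -0.01 ± 0.07 (adjusted p = 0.861) without replicate 2. TEAD4 (ENSG00000197905, chr12:2959330-3040676, plus strand) was at 5.04, 4.94 and 5.11 in parental, 5.34, 6.22 and 5.16 in TalaR-M, and 5.51, 5.43 and 5.31 in TalaR-DF cells. Both TalaR groups lay above parental in every library. The differences were 0.54 ± 0.26 in TalaR-M (adjusted p = 0.164, limma) and 0.39 ± 0.26 in TalaR-DF. Without replicate 2 the TalaR-M difference was 0.22 ± 0.09 (adjusted p = 0.0525). Over all settings tried, the adjusted p of TEAD4 in TalaR-M against parental (limma) ran from 0.00790 to 0.339. TEAD4, whose transcript of 1710 bases was the shortest among the 10, was the only member higher in TalaR-M replicate 2 than in its companions.

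AMOTL2, the angiomotin and YAP target, was higher in both TalaR groups except in TalaR-M replicate 2. AMOTL2 (ENSG00000114019, chr3:134355347-134375479, minus strand) was at 3.88, 3.46 and 3.49 log2 CPM in parental, 5.54, 2.77 and 5.40 in TalaR-M, and 4.70, 4.51 and 4.56 in TalaR-DF cells. The TalaR-DF libraries were all above parental, by 0.98 ± 0.65, and below TalaR-M replicates 1 and 3. In TalaR-M the difference was 0.96 ± 0.65 (adjusted p = 0.302, limma) with all libraries and 1.86 ± 0.13 (adjusted p = 1.73e-08) without replicate 2, when the gene was called. TalaR-DF differed from TalaR-M by 0.02 ± 0.65 with all libraries and by -0.88 ± 0.13 without that library.

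Among the 8 tested members, 1 was called higher (FAT4) and 1 lower (WWTR1) in TalaR-M against parental, where a call needed an adjusted p below 0.05 together with a 2-fold difference or more. Over all 12471 genes 5.53% were called higher and 7.72% lower. The members' median difference was -0.59, against -0.09 for all genes. Without TalaR-M replicate 2, FAT4 and AMOTL2 were called higher and none lower, against 6.41% and 7.16% of 12317 genes, and the medians were 0.10 and 0.01. The TalaR-DF columns chose the set, so the counts there are fixed in part by that choice, are no test and are given only beside the shares over all genes. In TalaR-DF against parental FAT4 was over both thresholds, where 2.25% of genes were called higher and 7.49% lower, and without TalaR-M replicate 2 DCHS1 was over them downwards (2.77% and 8.74%). In TalaR-DF against TalaR-M no member was over them (1.64% and 5.29%), and DCHS1 was, downwards, without that replicate (1.42% and 6.59%). All comparisons share libraries, and their values are given side by side only.

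**Figure D2:**
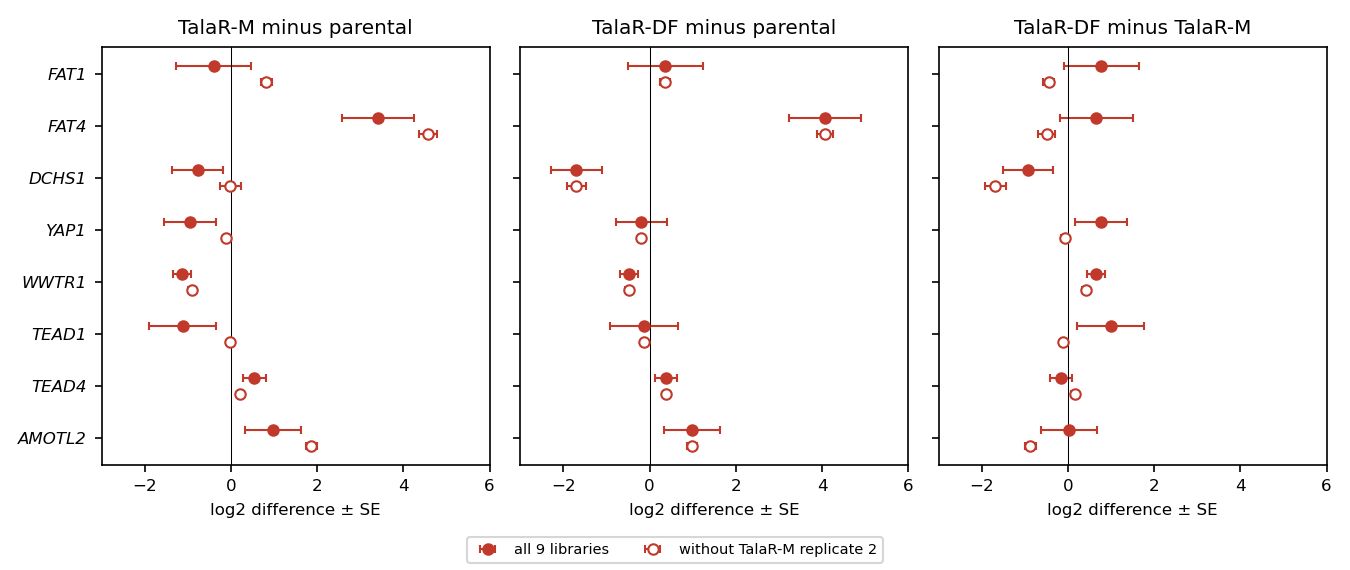
Log2 differences with SE of the 8 tested genes in 3 comparisons, with all 9 libraries (filled) and without TalaR-M replicate 2 (open). Leaving out that library moves TEAD1 from -1.12 to -0.01 in TalaR-M against parental and turns FAT1 from -0.41 to 0.82, while the differences between TalaR-DF and parental cells keep their values and get smaller errors.

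The 10 genes include some of the longest transcripts, which bears on that library. FAT4, with a transcript of 17151 bases, had a difference of -3.47 log2 units between TalaR-M replicate 2 and the mean of its companions. The FAT1 difference was -3.67, at 14776 bases, and that of TEAD1 was -3.32, at 9417 bases. Among genes of like length, the 10th percentile of this deviation was -2.76 for FAT4, -2.75 for FAT1 and -2.54 for TEAD1, so these genes deviated more than most of their length. YAP1 at -2.51 and AMOTL2 at -2.70 were also below the 10th percentile of their length, -2.16 and -2.06. WWTR1 at -0.70 and TEAD4 at 0.98 lay inside the range from the 10th to the 90th percentile. DCHS1 was at the floor in that library, so its deviation was -2.28 or lower and cannot be placed against its 10th percentile of -2.59. With a smooth trend on length and GC content removed from each library, the TalaR-M differences from parental were 0.09 ± 0.53 for FAT1, 3.73 ± 0.49 for FAT4, -0.63 ± 0.32 for YAP1, -0.64 ± 0.43 for TEAD1, -0.83 ± 0.13 for WWTR1 and 1.19 ± 0.52 for AMOTL2.

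**Figure D3:**
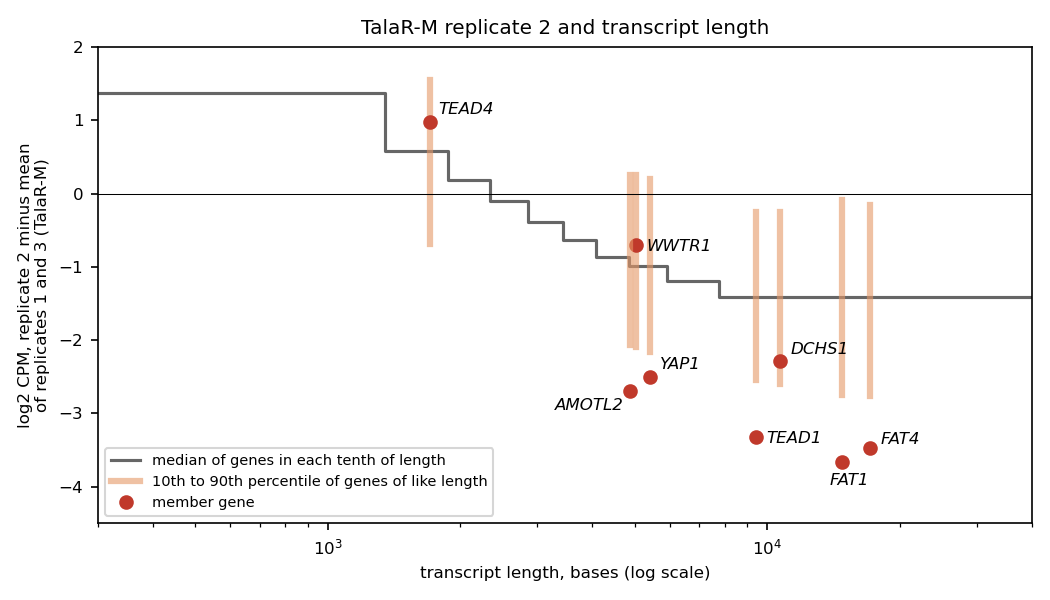
Log2 CPM of TalaR-M replicate 2 minus the mean of replicates 1 and 3, against transcript length on a log scale, for the 8 member genes (points), with the median of all tested genes in each of 10 length classes (line) and the 10th to 90th percentile of genes of like length (bars). FAT1, FAT4, TEAD1, YAP1 and AMOTL2 lie below their bars, and TEAD4 lies above 0.

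Of the targets of YAP and TAZ, 6 rose in cells kept in Talazoparib, and 5 were lower after withdrawal than in those cells. Over all genes 5.53% were called higher in the first comparison and 5.29% lower in the second. The list held 21 genes in the file besides AMOTL2, all of them tested. It was written from general knowledge, but with earlier results of these data known, so its counts and medians are descriptions. The 6 that rose in TalaR-M against parental were CCN1 and CCN2, secreted matricellular proteins listed as CYR61 and CTGF, ANKRD1, a nuclear ankyrin repeat protein, AXL, a receptor tyrosine kinase, CCDC80, an extracellular matrix protein, and RBMS3, an RNA-binding protein. NT5E, the ectonucleotidase CD73, fell, where 7.72% of all genes were called lower. The list's median difference was 0.27 against -0.09 for all genes. Without TalaR-M replicate 2, CRIM1 and FOXF2 rose as well, so that 8 rose and 1 fell (6.41% and 7.16% of all genes), and the median was 0.78 against 0.01.

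CCN1 was at 5.42, 5.35 and 5.50 log2 CPM in parental, 7.97, 7.68 and 7.92 in TalaR-M, and 6.53, 6.58 and 6.38 in TalaR-DF cells. It rose by 2.43 ± 0.13 in TalaR-M (adjusted p = 4.88e-06, limma) and by 1.07 ± 0.13 in TalaR-DF (adjusted p = 7.12e-04), with TalaR-DF 1.36 ± 0.13 below TalaR-M (adjusted p = 3.74e-04). The groups did not overlap, and without TalaR-M replicate 2 the rise in TalaR-M was 2.52 ± 0.07. CCN2 was at 3.65, 3.65 and 3.73 in parental, 5.89, 5.61 and 5.91 in TalaR-M, and 4.05, 4.21 and 4.09 in TalaR-DF cells. It rose by 2.13 ± 0.14 in TalaR-M (adjusted p = 1.57e-05, limma), or 2.22 ± 0.10 without replicate 2. The TalaR-DF difference from parental was 0.44 ± 0.14 (adjusted p = 0.0656, limma), and its adjusted p was 4.64e-04 without that library, with the same difference, under the minimum change. ANKRD1 changed most, from 2.50, 2.29 and 2.18 in parental to 6.01, 5.28 and 5.78 in TalaR-M and 2.92, 2.91 and 3.18 in TalaR-DF cells. That was a rise of 3.37 ± 0.21 (adjusted p = 1.33e-05, limma) in TalaR-M, with TalaR-DF below TalaR-M (-2.69 ± 0.21, adjusted p = 1.62e-04). Without TalaR-M replicate 2 these were 3.57 ± 0.14 and -2.89 ± 0.14. ANKRD1 in TalaR-DF was 0.68 ± 0.21 above parental (adjusted p = 0.0623, limma, or 2.86e-04 without that library), also under the minimum change.

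CCDC80 was also above parental after withdrawal. It was at 3.12 to 3.41 log2 CPM in parental, 6.06 to 6.61 in TalaR-M and 5.26 to 5.34 in TalaR-DF cells. It rose by 3.13 ± 0.17 in TalaR-M (adjusted p = 5.86e-06, limma), or 3.28 ± 0.10 without replicate 2, with a difference of 2.05 ± 0.17 between TalaR-DF and parental (adjusted p = 8.71e-05, limma). RBMS3 was 1.15 ± 0.28 above parental in TalaR-DF (adjusted p = 0.0226, limma). In TalaR-DF against parental, CCN1, CCDC80 and RBMS3 rose and 3 targets fell, F3 (tissue factor) by 1.23 ± 0.36, IGFBP3 (an IGF-binding protein) by 1.60 ± 0.14 and NT5E by 1.52 ± 0.21, all called by limma, against 2.25% of all genes higher and 7.49% lower. In TalaR-DF against TalaR-M no target rose and 5 fell, namely CCN1, CCN2, ANKRD1, CCDC80 and NUAK2 (a kinase), the last by 1.62 ± 0.32. NUAK2 lay near the floor in TalaR-DF, at 1.35, 0.13 and 0.03 log2 CPM from 36, 14 and 12 reads. AXL, F3 and RBMS3 also fell without TalaR-M replicate 2. The list's median was -0.34 there, against 0.09 for all genes, and -0.82 against 0.02 without that library. The targets therefore did not move as a block, since IGFBP3 and NT5E were below parental in every TalaR library.

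**Figure D4:**
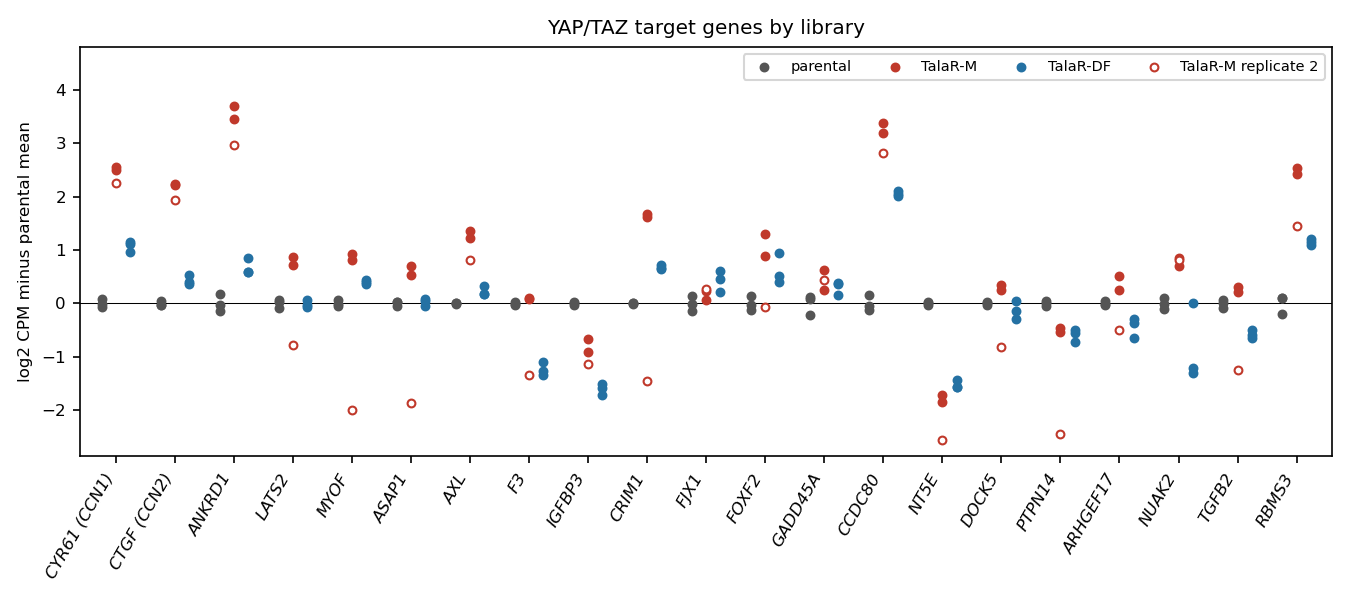
Log2 CPM minus the parental mean for 21 YAP/TAZ target genes in 9 libraries, colored by group, with TalaR-M replicate 2 as open circles. CCN1, CCN2, ANKRD1 and CCDC80 are highest in TalaR-M, replicate 2 included, whereas MYOF, ASAP1 and CRIM1 are above 0 in TalaR-M replicates 1 and 3 and below it in replicate 2.

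The upstream part of the pathway was read from 42 listed genes, of which 36 were tested: kinases and scaffolds, partners of the FAT and Dachsous cadherins, and TEAD2, TEAD3 and the VGLL cofactors. LATS2, PTPN14 and FJX1 are counted both here and among the targets. These genes, too, were listed with earlier results of these data known. In TalaR-M against parental 5 rose and 2 fell, against 5.53% and 7.72% of all genes, so that the count of genes that fell was no higher than over all genes. The core kinases STK3, STK4, LATS1 and LATS2 were not among them. AMOT, the founding angiomotin, was at 0 in all parental libraries, at 4.24, 3.16 and 4.25 log2 CPM in TalaR-M, and at 1.31, 1.58 and 1.66 in TalaR-DF cells, which put TalaR-M at least 14.8-fold higher and TalaR-DF at least 2.86-fold higher than the floor of 1 CPM per library. It was also 2.37 ± 0.28 lower in TalaR-DF than in TalaR-M (adjusted p = 0.00127, limma), and the difference was -2.73 ± 0.15 without TalaR-M replicate 2. FRMD6, a FERM protein upstream of the Hippo kinases, was at 1.98, 2.03 and 2.41 in parental, 4.92, 3.01 and 4.87 in TalaR-M and 2.56, 2.50 and 2.09 in TalaR-DF cells. It rose by 2.12 ± 0.48 in TalaR-M (adjusted p = 0.0141, limma), or 2.75 ± 0.17 without replicate 2. In TalaR-DF its difference from parental was 0.25 ± 0.48 (adjusted p = 0.821, limma), and the libraries of the 2 groups overlapped. NF2, the tumor suppressor merlin, rose by 1.05 ± 0.13 (adjusted p = 6.95e-04, limma) and by 0.95 ± 0.07 without TalaR-M replicate 2, under the minimum change. WTIP, a LIM protein of the AJUBA family, rose by 2.37 ± 0.30 (adjusted p = 7.74e-04, limma), or 2.07 ± 0.20 without replicate 2, and AJUBA itself rose without replicate 2, by 1.52 ± 0.09 (adjusted p = 6.02e-09).

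Of 9 tested partners of the FAT and Dachsous cadherins, most were planar polarity genes. PRICKLE1 rose and PRICKLE2 and CELSR1 fell in both TalaR groups. The other 6, CELSR2, CELSR3 and VANGL1 among them, were not called. PRICKLE1 went from 0.93, 0.20 and 0.45 log2 CPM in parental to 3.88, 3.50 and 3.68 in TalaR-M and 2.75, 2.73 and 2.83 in TalaR-DF cells, differences of 3.16 ± 0.20 (adjusted p = 1.53e-05, limma) and 2.24 ± 0.20 (adjusted p = 1.47e-04). Its paralog PRICKLE2 went from 4.46, 4.50 and 4.71 to 3.01, 2.80 and 2.85 and then 1.78, 2.13 and 2.24, differences of -1.67 ± 0.17 (adjusted p = 2.09e-04, limma) and -2.51 ± 0.17 (adjusted p = 2.66e-05). Without TalaR-M replicate 2 the TalaR-M differences were 3.25 ± 0.19 and -1.63 ± 0.15. Neither gene had overlapping groups. CELSR1, a seven-pass cadherin of the same polarity system, fell by 1.54 ± 0.43 in TalaR-M (adjusted p = 0.0343, limma) and by 1.55 ± 0.43 in TalaR-DF (adjusted p = 0.0387). Without TalaR-M replicate 2 the TalaR-M difference of CELSR1 was -0.95 ± 0.09, under the minimum change, so that its direction held and its call did not. TEAD2, another TEAD factor, was at 5.54 to 5.77 in parental, 4.88 to 5.24 in TalaR-M and 4.20 to 4.42 log2 CPM in TalaR-DF cells, and fell by 1.36 ± 0.15 in TalaR-DF (adjusted p = 4.17e-04, limma).

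In all, AMOT and PRICKLE1 rose and CELSR1, PRICKLE2 and TEAD2 fell in TalaR-DF against parental, 2 and 3 of 36 genes against 2.25% and 7.49% of all genes, so that the count of falls was near the share over all genes. FRMD6, AMOT and WTIP fell and none rose in TalaR-DF against TalaR-M (5.29% and 1.64% of all genes). Without TalaR-M replicate 2, PRICKLE1 and TEAD3 fell in the latter as well. The median difference of the 36 genes was -0.34 in TalaR-M against parental (-0.09 for all genes), 0.05 in TalaR-DF against parental (0.01) and 0.31 in TalaR-DF against TalaR-M (0.09). When TalaR-M replicate 2 was left out, these became 0.11, 0.05 and -0.07, so that the first and the third changed sign.

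**Figure D5:**
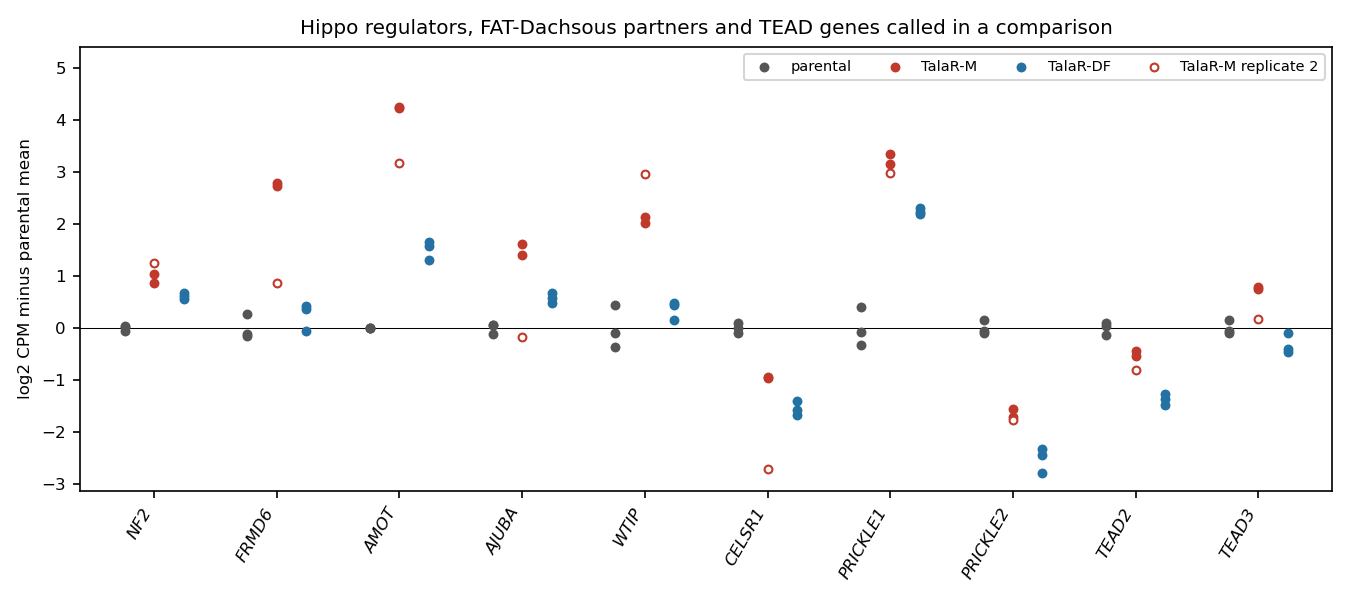
Log2 CPM minus the parental mean for 10 upstream and TEAD genes called in at least 1 comparison with all libraries or without TalaR-M replicate 2, which is drawn as open circles. AMOT, FRMD6 and WTIP are highest in TalaR-M and lower in TalaR-DF, PRICKLE1 stays raised in both, and PRICKLE2 and TEAD2 are lowest in TalaR-DF.

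The pattern of FAT4 over the 9 libraries was most like that of SSTR1, SEMA3E, UST, TENM2 and GLUL, by the Euclidean distance between log2 values after subtraction of each gene's parental mean. The distances were 1.44, 2.04, 2.04, 2.15 and 2.19. SSTR1, a somatostatin receptor, was at 0 in all parental libraries, at 4.03, 1.52 and 3.96 in TalaR-M and at 3.65, 3.62 and 3.40 in TalaR-DF cells. TENM2, a teneurin of the cell surface, was at 1.91, 1.56 and 1.49 in parental, 6.16, 3.69 and 6.19 in TalaR-M and 4.68, 4.78 and 4.61 in TalaR-DF. Like FAT4, all 5 genes had their lowest TalaR value in TalaR-M replicate 2. The distance was taken over that library and the TalaR-DF libraries too, so this likeness was fixed in part by the choice. GLUL, glutamine synthetase, had a group mean of 0.39 ± 0.12 (SD, n = 3) in parental, 4.08 ± 0.64 in TalaR-M and 4.33 ± 0.11 in TalaR-DF cells.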

How the data were processed

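RNAseq of PSN1 cells was analysed, with 3 replicates in each of the parental, TalaR-M and TalaR-DF groups and 9 libraries in all. The other cell lines and treatments of the series were not analysed here. Stranded poly(A) libraries were sequenced as paired reads. The submitters' processing notes name hg38; the aligner, counter and annotation are not given in the sources used here. The authors deposited log2 values, read here as log2 CPM with a prior count of 1 and values under 0 set to 0. TalaR-M and TalaR-DF are the columns whose names say maintain and withdraw. Reads recovered from the steps between values (whole within 0.05 for all values under 50 CPM) served for depth; each CPM was worth 7.54 to 15.7 reads, which limits precision near the floor.

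Genes over 1 CPM in at least 3 libraries, 12471 in all, entered a limma model (version 3.58.1, R 4.3.3) of the 3 groups with a mean-variance trend and Benjamini-Hochberg adjustment over all genes. SE is the model's. A gene was called at an adjusted p under 0.05 and a log2 difference of at least 1. An exact permutation test of 3 against 3 libraries cannot pass 0.05 and was not used. The test was tried on simulated data. Those had no length trend and no deviating library, so the trial says nothing of how the test handles TalaR-M replicate 2. Lengths, GC content and positions came from GENCODE 44, promoters from RefSeq, and CPM per kilobase takes values at the floor as 0. Genes of like length lie within 0.25 log2 units. The members and lists were chosen with earlier results of these data known. The genes named were the 10 members, CCN1, CCN2, ANKRD1, pathway genes called in a comparison, and the 5 nearest to FAT4. Alternatives covered pseudocount, filter, scaling, trend, replicate block, groups fitted, fold minimum, removal of a length and GC trend, and leaving out each library. 1 marker gene is not reported here.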

Additional observations from a re-analysis of the deposited data

How the results depend on the processing

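Of the values of single members under other settings, 389 kept direction and call or stayed within the spread between replicates, and 16 did not. These counts do not measure stability. Settings such as no trend or a replicate block leave the differences unchanged. In comparisons with TalaR-DF cells the rule was the spread, which TalaR-M replicate 2 widened in TalaR-M cells. FAT1 in TalaR-DF against TalaR-M went from 0.77 to -0.45 without that replicate and counted as kept. FAT4 went from 0.66 to -0.50 there and counted as kept too. The FAT1 difference between TalaR-M and parental cells (-0.41) turned to 0.0919 with the length and GC trend removed, and ran from -1.08 to 0.82 when single libraries were left out, with 0.82 without TalaR-M replicate 2. In TalaR-M against parental, 2 members were called, and 1 was called with no filter, with only the 2 groups fitted and with the length and GC trend removed. Leaving out single libraries gave 1 to 2. The TalaR-DF columns chose the members, so their counts there say nothing of stability: 1 member was over the thresholds against parental, with 2 for only the 2 groups and 0 to 2 when single libraries were left out, and 0 against TalaR-M, with 0 to 1 when single libraries were left out. Of the YAP/TAZ targets, 7, 6 and 5 were called (TalaR-M and then TalaR-DF against parental, then TalaR-DF against TalaR-M). Leaving out single libraries gave 7 to 9, 4 to 6 and 4 to 8. In TalaR-DF against TalaR-M the count was 3 with a pseudocount of 8 CPM and 8 with the median ratio. Of the 36 upstream and cofactor genes, 7, 5 and 3 were called, and 5 to 9, 4 to 5 and 2 to 5 when single libraries were left out. With no minimum fold change 11 were called in TalaR-M against parental and 7 in TalaR-DF against TalaR-M, by construction. In TalaR-DF against parental 3 were called with a pseudocount of 8 CPM, and in TalaR-DF against TalaR-M 5 were called with the median ratio and 5 with the length and GC trend removed. The cause of the other shifts was not tested. Scaling by the median ratio moved the median of all genes from -0.09 to 0.02 in TalaR-M against parental and from 0.09 to -0.07 in TalaR-DF against TalaR-M.

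Deviations of same-numbered samples from their group means were correlated at r from -0.31 to 0.16 over 9 pairs, 2 of them over 0.1. With 3 samples a group and TalaR-M replicate 2 among them, a weak pairing could be missed. The main fit used no pairing. With a replicate block 2 members were called in TalaR-M against parental, and in the 3 comparisons the targets called were 7, 5 and 5, and the upstream genes 6, 4 and 2. Values near the floor, as for FAT4 in parental and DCHS1 and NUAK2 in TalaR-DF cells, rest on few reads. Smaller amounts were not detectable at this depth.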
